A study of Homo sapiens with 5 samples.

Results

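The clustered protocadherins are the members of 3 neighbouring gene clusters, alpha, beta and gamma, on chromosome 5. All rows of the deposited table whose symbol had the form of a PCDHA, PCDHAC, PCDHB, PCDHGA, PCDHGB or PCDHGC gene were taken, with no use of their values, which gave 53 members of 26506 genes. They comprised 15 alpha, 16 beta and 22 gamma genes, among them the 5 C-type members PCDHAC1, PCDHAC2, PCDHGC3, PCDHGC4 and PCDHGC5. The 4 pseudogenes listed for these clusters were not members and reached at most 0.50 TPM (a level corrected for gene length and for the size of the library).

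RNA of the human embryonic stem cell line H9 was sequenced in 5 libraries, each the only one of its group. Wild-type (WT) cells were grown in basal medium (labelled primed), in 5iLAF medium (labelled naive) and in 2iLAF medium (labelled primed-naive). Cells lacking both copies of B3GALT5 (B3GALT5-KO), a galactosyltransferase gene of glycosphingolipid synthesis, were grown in basal medium (labelled primed) and in 2iLAF medium (labelled naive). Both naive-type media add LIF, FGF2 and activin A to a set of kinase inhibitors, with fewer inhibitors in 2iLAF, and WT cells in 2iLAF served as the study's control. Whether the knockout cells are 1 clone is not given in the sources used here.

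Clustered protocadherins are cadherin-like membrane proteins that bind their own kind on a neighbouring cell and are best known for giving each neuron a surface identity used in self-avoidance. Every alpha and gamma gene has its own promoter and its own long variable exon, which is spliced to constant exons that all genes of that cluster share, whereas beta genes have no constant exons. Neurons switch on a small, partly random set of variable members in each cell, a choice that involves CTCF, cohesin and methylation of the promoters, while C-type members are expressed more evenly.

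The sharing is visible in the transcripts themselves, shown here because it decides how far a single row can be read. The lines give the last 30 bases of the first exon in lower case and the next 30 bases, from the constant exon, in capitals (GENCODE 29, coding strand, 5′ to 3′). The first exon is the full variable exon save in PCDHGC3-205, where it has 167 bases, against 2544 in PCDHGC3-201. The number after the hyphen is the transcript's number in that annotation.
PCDHA10-201: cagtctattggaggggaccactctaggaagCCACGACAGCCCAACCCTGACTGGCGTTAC
PCDHA12-201: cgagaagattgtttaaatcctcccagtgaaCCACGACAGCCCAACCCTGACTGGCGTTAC
PCDHAC2-201: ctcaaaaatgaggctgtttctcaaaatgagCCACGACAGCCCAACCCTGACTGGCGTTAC
PCDHGB7-201: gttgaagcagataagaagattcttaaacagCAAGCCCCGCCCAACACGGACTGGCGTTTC
PCDHGC3-201: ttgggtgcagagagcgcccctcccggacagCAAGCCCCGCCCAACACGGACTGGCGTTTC
PCDHGC3-205: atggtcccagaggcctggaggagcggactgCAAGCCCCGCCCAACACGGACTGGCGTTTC
The capitals are the same within a cluster and differ between alpha and gamma. In transcripts of 4 exons that carry the whole constant part, 2866 bases were shared within alpha and 2181 within gamma. All shared bases together made 45.5% to 54.9% of the transcript over the 15 alpha genes and 45.7% to 50.4% over the 22 gamma genes. The highest gamma share was that of PCDHGB4-201, which had 2306 shared bases, more than the constant part. No exonic base was shared between beta genes. RSEM, named in the submitters' processing notes, assigns reads of shared exons to genes by an estimate, so alpha and gamma are given as sums and their single rows carry that uncertainty. The sums are not free of it either, since TPM corrects for length and transcripts that share the constant exons differ in length. PCDHGC3 bears on the results most, and its transcript PCDHGC3-205 has 2346 bases, of which 167 are its own in that no other gene of the cluster holds them. PCDHAC2 and PCDHGC4 also have a short transcript that is mostly shared, with 76 and 114 bases of their own. Which of these transcripts the authors' annotation held is not known here.

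Promoters of the members were compared because each variable exon is read from its own promoter. RefSeq windows (GRCh38.p14, 250 bases before to 50 after a gene's start) were at hand for 47 of the 53 members. In each cluster the 8-base word present in the most windows, on either strand, was found by counting. It was ATGTCGCT (AGCGACAT on the other strand) in 9 of 13 alpha windows, GTGGCGCT (AGCGCCAC) in 13 of 14 beta windows and GCCGCTGT (ACAGCGGC) in 11 of 20 gamma windows. None of these words occurred in the windows of the other 2 clusters. Among all 35116 windows of the table, 0.234%, 1.15% and 1.64% held them. All 3 words contain CGCT, the 4 letters at the heart of the element known from clustered protocadherin promoters. CGCT alone is common, on either strand in 46 of 47 member windows and in 70.0% of all windows.

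The words are set in capitals in these stretches, chosen among the members that hold them and reached 5 TPM in a library, each on the plus strand of chromosome 5.
PCDHA10: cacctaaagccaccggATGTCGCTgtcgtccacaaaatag
PCDHA12: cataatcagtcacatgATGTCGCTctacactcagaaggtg
PCDHA6: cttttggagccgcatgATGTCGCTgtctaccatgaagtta
PCDHB2: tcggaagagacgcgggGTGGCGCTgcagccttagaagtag
PCDHB5: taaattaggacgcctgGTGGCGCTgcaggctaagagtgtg
PCDHB15: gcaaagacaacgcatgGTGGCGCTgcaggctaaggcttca
PCDHGB4: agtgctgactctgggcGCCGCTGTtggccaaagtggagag
PCDHGA10: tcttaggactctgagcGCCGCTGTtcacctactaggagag
PCDHGC3: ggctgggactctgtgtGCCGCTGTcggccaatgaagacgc
The 250 bases before the start are given for PCDHB5, the member at the highest median level, at chr5:141134956-141135205, and for PCDHGC3, the member with the largest difference between media, at chr5:141475716-141475965 (GRCh38.p14, plus strand).
PCDHB5: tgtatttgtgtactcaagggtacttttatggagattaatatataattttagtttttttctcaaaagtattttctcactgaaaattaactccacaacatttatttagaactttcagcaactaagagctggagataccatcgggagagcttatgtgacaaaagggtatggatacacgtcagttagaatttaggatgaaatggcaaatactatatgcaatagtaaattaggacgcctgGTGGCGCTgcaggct
PCDHGC3: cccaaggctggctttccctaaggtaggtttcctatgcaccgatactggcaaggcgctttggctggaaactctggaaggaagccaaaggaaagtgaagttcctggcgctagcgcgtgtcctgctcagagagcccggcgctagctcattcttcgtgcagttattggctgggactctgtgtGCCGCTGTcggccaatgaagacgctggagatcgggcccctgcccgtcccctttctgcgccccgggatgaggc

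The word lay on the coding strand in every window that held it. Its first base was 42 to 85 bases before the start in alpha (median 52), 1 to 83 in beta (median 65) and 42 to 97 in gamma (median 67). Members that held the word ranged widely in level. The 9 alpha members with it had median levels over the 5 libraries from 0.09 to 6.23 TPM, and 4 of them reached 1 TPM in a library. In beta, 11 of the 13 members with the word reached 1 TPM, and PCDHB1, the beta member without it, did not. In gamma, 7 of 11 members with the word and 4 of 9 without it reached 1 TPM, and PCDHGB7, at a median of 9.58 TPM, was among those without. A word is a description of these letters and not a site of binding.

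**Figure D1:**
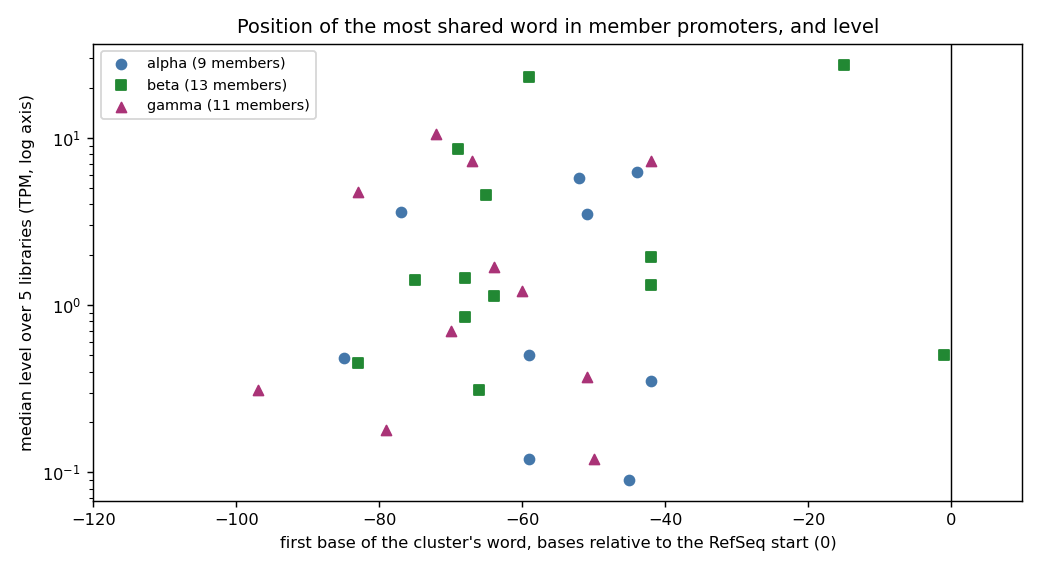
Position of the most shared 8-base word of each cluster in the member promoters (x axis, first base of the word in bases relative to the RefSeq start, 33 members) against the member's median level over 5 libraries (y axis, TPM, log axis). Alpha and gamma words lie between 42 and 97 bases before the start, at members with medians from 0.09 to 10.6 TPM.

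Each group holds 1 library, so the differences that follow have no replicate check and no error can be given, and read depth is unknown. Libraries summed to 999999 or 1000000 TPM, with 13729 to 14156 genes at or above 1 TPM. B3GALT5 stood at 9.31 and 5.98 TPM in basal WT and knockout cells, 5.13 and 2.08 TPM in WT cells in 2iLAF and 5iLAF, and 1.17 TPM in knockout cells in 2iLAF, and its transcript level does not check the knockout. The 6 pluripotent stem cell markers were at 16.5 TPM or more in all 5 libraries, with the lowest value that of NANOG in WT 2iLAF, and POU5F1 stood between 1099 and 3350.3 TPM. Of 6 naive markers, KLF17 and DPPA5 stayed below 1 TPM in all 5, also in the libraries labelled naive, while DNMT3L stood at 0.04 TPM in both basal libraries, 1.57 in WT 2iLAF, and 76.4 and 51.4 TPM in WT 5iLAF and B3GALT5-KO 2iLAF. The naive list summed to 6.92, 5.06 and 25.3 TPM in WT basal, B3GALT5-KO basal and WT 2iLAF, and to 91.1 and 63.6 TPM, mostly DNMT3L, in the libraries labelled naive. KLF4 had another order, highest in WT 2iLAF at 20.5 TPM against 7.71 and 7.57 TPM in WT 5iLAF and B3GALT5-KO 2iLAF. TFCP2L1 stood between 1.38 and 2.77 TPM, lowest in B3GALT5-KO 2iLAF, so the list did not rise as a whole. Fibroblast and mesenchyme markers (10 genes) summed to 820, 897 and 495 TPM in WT basal, B3GALT5-KO basal and WT 2iLAF, and to 3931 and 7864 TPM in WT 5iLAF and B3GALT5-KO 2iLAF. Without THY1, which is also a primed marker, the 9 others summed to 104, 142 and 429 TPM in the first 3 libraries and to 3917 and 7826 TPM in the last 2. Granulocyte markers (5 genes) summed to 1014 TPM in B3GALT5-KO 2iLAF and to between 1.58 and 9.52 in the other libraries. Erythroid markers (5 genes) summed to 218 TPM in both WT basal and B3GALT5-KO 2iLAF, and to between 0.17 and 12.1 TPM in the other 3. Of 11 neural markers, PAX6, SOX1 and ELAVL4 stayed below 1 TPM in every library, and the others did not share 1 order. STMN2 stood between 1.30 and 2.25 TPM in the 3 libraries not labelled naive and at 49.97 and 48.1 TPM in WT 5iLAF and B3GALT5-KO 2iLAF. NCAM1 was also highest in these 2, at 14.6 and 11.7 TPM. SYP went the other way, from between 3.21 and 7.41 TPM in the 3 to 0.55 and 0.79 TPM in the 2, and MAP2 was highest in WT 2iLAF, at 7.51 TPM. The list, mostly TUBB3, summed to 236 and 149 TPM in basal WT and knockout cells, 496 TPM in WT 2iLAF, and 674 and 588 TPM in WT 5iLAF and B3GALT5-KO 2iLAF.

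In all 5 libraries the same few members made up most of each cluster. Of 53 members, 29 reached 1 TPM in at least 1 library, 15 did so in all 5, and 24 stayed below 1 TPM throughout. For comparison, 15761 of 26506 genes in the table reached 1 TPM in a library, 12201 of them in all 5. The 24 members below were 9 alpha, 5 beta and 10 gamma genes, and they ended at PCDHGA6, PCDHB11 and PCDHA3 with highest levels of 0.83, 0.84 and 0.93 TPM. Just above the limit were PCDHGB2, PCDHGA3 and PCDHB3, with highest levels of 1.12, 1.16 and 1.60 TPM. Because a bulk library averages over cells, these levels do not show how many members a single cell used, and fewer cells with a transcript and less of it per cell cannot be told apart.

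**Figure D2:**
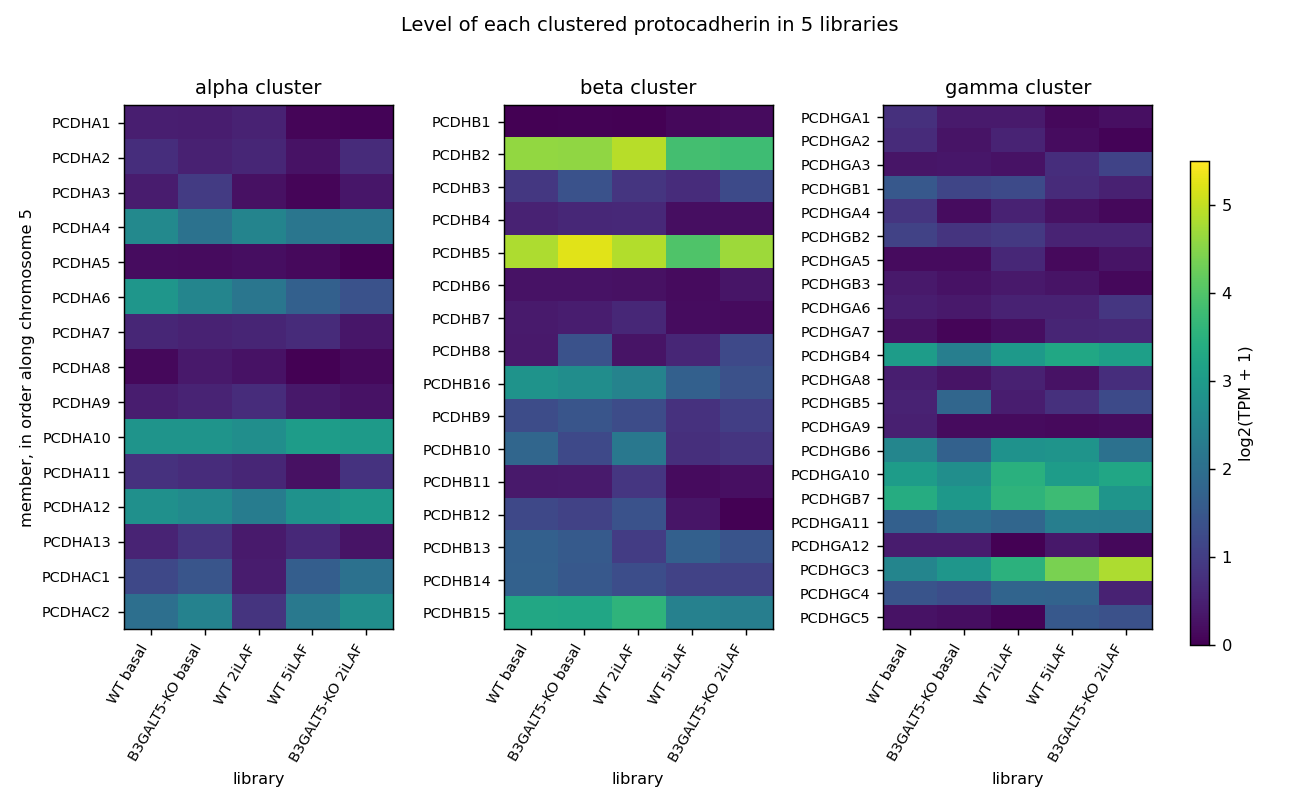
Level of each of the 53 members as log2(TPM + 1) (colour), with members in rows in their order along chromosome 5 and the 5 libraries in columns, 1 panel per cluster. The same rows are bright in every column, among them PCDHA10, PCDHA12, PCDHB2, PCDHB5, PCDHGB7 and PCDHGC3.

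In the alpha cluster 4 variable members, PCDHA4, PCDHA6, PCDHA10 and PCDHA12, were at or above 1 TPM in every library, and no other variable alpha member reached 1 TPM in any. PCDHA10 stood at 6.18 and 6.23 TPM in basal WT and knockout cells, 5.53 and 7.27 TPM in WT cells in 2iLAF and 5iLAF, and 6.94 TPM in knockout cells in 2iLAF. Values given 5 in a row keep this order of libraries throughout. PCDHA10 was the most level of the 4 and held between 19.8% and 27.2% of the alpha sum. PCDHA12 stood at 5.74, 5.22, 3.94, 6.01 and 6.74 TPM in the same order of libraries, lowest in WT 2iLAF. PCDHA4 stood at 5.05, 3.23, 4.62, 3.46 and 3.59 TPM, highest in WT basal. The 4 most abundant alpha members together held between 68.8% in B3GALT5-KO basal and 79.5% in WT 2iLAF.

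The beta cluster was led in every library by PCDHB5 and PCDHB2, which together held 65.3% of the beta sum in WT basal and 73.3% in B3GALT5-KO 2iLAF, the lowest and the highest share. PCDHB5 stood at 27.4 and 37.1 TPM in basal WT and knockout cells, 28.1 and 14.8 TPM in WT cells in 2iLAF and 5iLAF, and 24.9 TPM in knockout cells in 2iLAF. PCDHB2 stood at 23.3, 23.0, 29.1, 13.4 and 12.9 TPM in the same order. PCDHB15 and PCDHB16 came next, save that PCDHB13, at 1.68 TPM, was ahead of PCDHB16 in B3GALT5-KO 2iLAF. At the other end PCDHB1 stayed at or below 0.12 TPM.

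The gamma cluster was spread over more members than alpha and beta in 4 libraries, and over fewer than alpha in B3GALT5-KO 2iLAF. The effective number of members, the inverse of the summed squared shares, was 8.05 and 8.35 in basal WT and knockout cells, 7.09 and 6.08 in WT cells in 2iLAF and 5iLAF, and 4.46 in knockout cells in 2iLAF. It was between 3.26 and 4.22 in beta and between 5.75 and 7.23 in alpha, with 5.97 in B3GALT5-KO 2iLAF. PCDHGB7 stood at 9.58 and 6.69 TPM in basal WT and knockout cells, 10.9 and 12.6 TPM in WT cells in 2iLAF and 5iLAF, and 6.33 TPM in knockout cells in 2iLAF, lower in both knockout libraries than in any WT library. PCDHGA10 stood at 7.28, 5.55, 10.2, 7.19 and 8.49 TPM in that order, and PCDHGB4 at 7.25, 4.14, 6.88, 8.68 and 7.63 TPM. PCDHGB7 was the first member of the cluster in both basal libraries and in WT 2iLAF, and PCDHGC3 in the 2 libraries labelled naive.

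Across the 53 members, log2(TPM + 1) of WT basal correlated with that of B3GALT5-KO basal at 0.95 (Pearson) and 0.887 (Spearman), and with WT 2iLAF at 0.959 and 0.887. WT 5iLAF and B3GALT5-KO 2iLAF correlated at 0.956 and 0.894. The lowest of the 10 pairs was WT 2iLAF with B3GALT5-KO 2iLAF, at 0.836 and 0.664. These values run over genes, which are not replicates, and the points include the 24 members below 1 TPM in all libraries. Over the 15761 genes that reached 1 TPM in a library, the Pearson value was 0.987 for the basal libraries. It was 0.946 for WT basal with WT 2iLAF, 0.97 for the libraries labelled naive and 0.856 for the libraries in 2iLAF. Of the 24 members at or above 1 TPM in WT basal, 23 were also there in B3GALT5-KO basal, 95.8% of the WT and 88.5% of the knockout set. This overlap was not taken over all genes, so it has no background beside it.

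Summed over all 53 members the level differed little between libraries, while its division among clusters did. The sum was 154 and 153 TPM in basal WT and knockout cells, 162 and 136 TPM in WT cells in 2iLAF and 5iLAF, and 147 TPM in knockout cells in 2iLAF. The beta sum was 77.6, 86.8 and 84.8 TPM in WT basal, B3GALT5-KO basal and WT 2iLAF, and 41.4 and 51.6 TPM in WT 5iLAF and B3GALT5-KO 2iLAF. The gamma sum was 45.5, 36.4 and 55.5 TPM in the first 3 of these libraries and 67.6 and 65.2 TPM in the last 2. Beta was thus the largest cluster in the libraries labelled primed or primed-naive, and gamma in those labelled naive. The place of gamma there rested on its C-type members. Without them gamma summed to 43.4 TPM in WT 5iLAF, close to beta, and to 35.8 TPM in B3GALT5-KO 2iLAF, below beta. The alpha sum was 31.3, 29.9, 22.1, 26.7 and 30.02 TPM in the same order, lowest in WT 2iLAF.

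**Figure D3:**
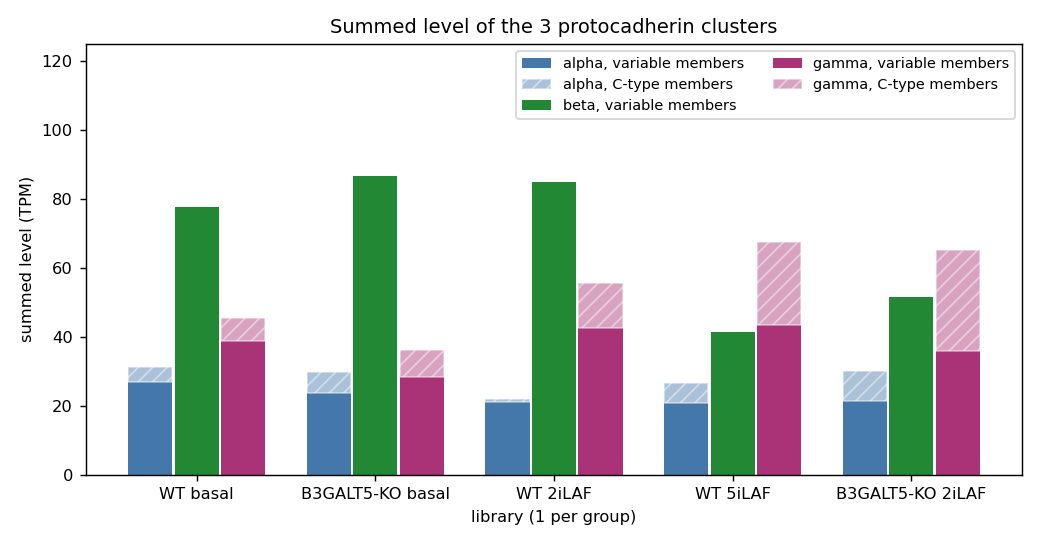
Summed level (y axis, TPM) of the alpha, beta and gamma cluster in each of the 5 libraries (x axis, 1 library per group, no error bars possible), with C-type members hatched on top of the variable members. The beta bar exceeds the gamma bar in the 3 libraries at left and is under it in WT 5iLAF (41.4 against 67.6 TPM) and B3GALT5-KO 2iLAF (51.6 against 65.2 TPM). Without the hatched C-type part, gamma is at 43.4 TPM in WT 5iLAF and 35.8 TPM in B3GALT5-KO 2iLAF.

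C-type members made up most of the difference of the gamma sum from basal medium in all 3 comparisons of a medium with basal. The 3 gamma C-type members summed to 6.57 and 7.99 TPM in basal WT and knockout cells, 13.0 and 24.2 TPM in WT cells in 2iLAF and 5iLAF, and 29.4 TPM in knockout cells in 2iLAF, which was 14.5%, 21.98%, 23.5%, 35.8% and 45.1% of the gamma sum. The 19 other gamma members summed to 38.9, 28.4, 42.5, 43.4 and 35.8 TPM in the same order, with both knockout libraries below the 3 WT libraries. Within these, the 7 B-type members summed to 25.3, 17.8, 26.7, 29.4 and 19.4 TPM, and the 12 A-type members to 13.6, 10.6, 15.8, 13.9 and 16.4 TPM.

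PCDHGC3, which in mouse neurons promotes branching of dendrites, stood at 4.66 and 6.37 TPM in basal WT and knockout cells, 10.6 and 19.99 TPM in WT cells in 2iLAF and 5iLAF, and 27.4 TPM in knockout cells in 2iLAF. Both basal libraries were low, WT 2iLAF was between, and the 2 libraries labelled naive were high. Its share of the gamma sum went with that order, from 10.2% in WT basal to 42.0% in B3GALT5-KO 2iLAF. Since its row can take up reads of the constant exons through a transcript with little sequence of its own, its level cannot be separated from theirs. This was not tested, as the table gives no values by transcript or exon.

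PCDHGC5, which binds synaptic GABA receptors in neurons, stood at 0.21, 0.15 and 0.04 TPM in WT basal, B3GALT5-KO basal and WT 2iLAF, and at 1.87 and 1.57 TPM in WT 5iLAF and B3GALT5-KO 2iLAF. The 2 groups of libraries did not overlap, all at low levels. PCDHGC4, needed for survival of interneurons in mice, had another order. Its levels were 1.70, 1.47, 2.44 and 2.36 TPM in WT basal, B3GALT5-KO basal, WT 2iLAF and WT 5iLAF, and 0.44 TPM in B3GALT5-KO 2iLAF, the low library.

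The alpha C-type members PCDHAC1 and PCDHAC2, of which the latter guides serotonergic axons in mice, were lowest in WT 2iLAF. PCDHAC2 stood at 3.0 and 4.45 TPM in basal WT and knockout cells, 0.78 and 3.64 TPM in WT cells in 2iLAF and 5iLAF, and 5.56 TPM in knockout cells in 2iLAF. PCDHAC1 stood at 1.28, 1.73, 0.34, 2.13 and 3.12 TPM. Both members were lower in WT 2iLAF than in any other library and highest in B3GALT5-KO 2iLAF, and together they made 5.07% of the alpha sum in the former and 28.9% in the latter.

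**Figure D4:**
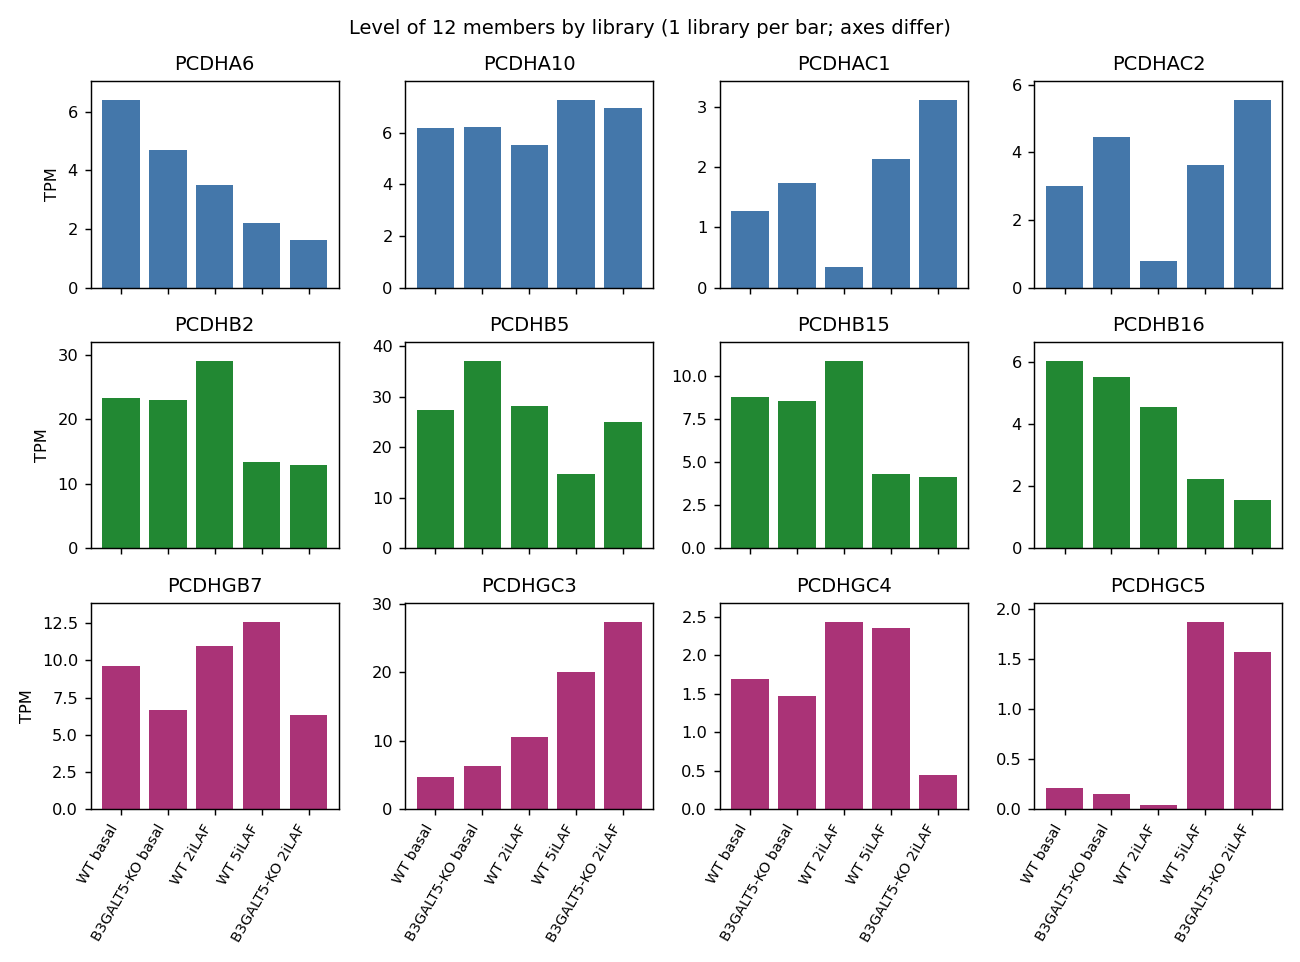
Level (y axes, TPM, each from 0 and scaled to its member) of 12 members in the 5 libraries (x axis, 1 library per bar). PCDHGC3 is highest in the libraries labelled naive, PCDHB2, PCDHB15 and PCDHB16 are lowest there, and PCDHAC1 and PCDHAC2 are lowest in WT 2iLAF.

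Pairs of libraries were then compared by log2((TPM + 1)/(TPM + 1)), on which low genes show less than their plain ratio. A member was counted as higher or lower at 1 or more in size (2-fold). Counts run over the 29 members that reached 1 TPM, and a member that passed only through its high library is favoured by that filter. Comparisons that use the same library are not independent of each other. With a pseudocount of 5 in place of 1, PCDHGC3 was the member that passed in WT 5iLAF against WT basal and in B3GALT5-KO 2iLAF against both B3GALT5-KO basal and WT 2iLAF, and no member passed in the other 3 comparisons.

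Between the basal libraries both members that passed were higher in knockout cells. In B3GALT5-KO basal against WT basal 2 of 29 members were higher and 0 lower, where 1.76% of all genes tested passed in either direction, 0.704% as higher and 1.05% as lower. That was 6.90% of the members. Members had a median of -0.10 and all genes -0.06, with a median size of 0.29 for members and 0.18 for all genes. The 2 members were PCDHGB5 and PCDHB8, both at low levels. Both reached 1 TPM in the knockout libraries alone and passed the filter only through them. PCDHGB5 stood at 0.45 and 2.52 TPM in basal WT and knockout cells, 0.35 and 0.70 TPM in WT cells in 2iLAF and 5iLAF, and 1.37 TPM in knockout cells in 2iLAF, a log2 ratio of 1.28 between the basal libraries. PCDHB8 stood at 0.30, 1.61, 0.23, 0.50 and 1.32 TPM in that order, a ratio of 1.01. Both were higher in either knockout library than in any WT library. The lowest ratio was that of PCDHGB6, at -0.83, with 4.78, 2.25, 5.95, 6.19 and 3.14 TPM in the same order of libraries. All 5 erythroid markers were lower in the same comparison, and their part in these values was not tested.

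Taking both knockout libraries against the 3 WT libraries, 4 of 29 members lay wholly above (PCDHAC2, PCDHB3, PCDHB8 and PCDHGB5) and 3 wholly below (PCDHGB6, PCDHGB7 and PCDHGC4). Of all genes tested, 3.22% lay wholly above and 4.89% wholly below. PCDHB3, PCDHB8 and PCDHGB5 reached 1 TPM in the knockout libraries alone, so the filter took them in only through the group where they were high. The count of members above is therefore favoured by the filter. PCDHB3 stood at 0.85 and 1.60 TPM in basal WT and knockout cells, 0.81 and 0.63 TPM in WT cells in 2iLAF and 5iLAF, and 1.35 TPM in knockout cells in 2iLAF. The labels do not say how the knockout line was derived, so genotype and line cannot be told apart.

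Between WT 2iLAF and WT basal both members that passed were C-type. Of 29 members 1 was higher, PCDHGC3 at 1.03, and 1 lower, PCDHAC2 at -1.17, where 11.8% of all genes tested passed in either direction, 4.73% as higher and 7.03% as lower. PCDHGC3 was at 0.69 with a pseudocount of 5, and PCDHAC2 at -0.47, so neither passed then. The share of members that passed was again 6.90%, here below that of all genes. All 6 alpha members tested had negative ratios on deposited TPM, and 4 of 6 under median-ratio or trimmed-mean scaling, which move the median of all genes by 0.14 and 0.13. The alpha median was -0.59, against -0.13 for all genes, on deposited TPM. Beta and gamma had medians of 0.01 and 0.04. The alpha sum had a log2 ratio of -0.48, beta 0.13 and gamma 0.28. In the same comparison 4 of 6 pluripotent stem cell markers were lower and 1 higher, 3 of 10 mesenchyme markers were higher and 1 lower, and 5 of 5 erythroid markers were lower, and their part in these values was not tested.

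In WT 5iLAF 2 of the 3 C-type gamma members were higher than in WT basal, and most beta members had negative ratios. Of 29 members 2 were higher and 3 lower, where 22.1% of all genes tested passed in either direction, 10.7% as higher and 11.4% as lower. PCDHGC3 had a log2 ratio of 1.89 and PCDHGC5 of 1.25. The lower members were PCDHA6 at -1.21, PCDHB16 at -1.12 and PCDHB10 at -1.08. PCDHGC5 reached 1 TPM only in libraries labelled naive and PCDHB10 only in the others. The filter thus took both in only through the group where they were high. Of 11 beta members tested 9 had negative ratios and 1 a positive one, with a median of -0.75, against -0.06 for all genes. The beta sum had a log2 ratio of -0.89 and the gamma sum 0.56, or 0.15 without the C-type members, while alpha was at -0.22. In the same comparison 7 of 10 mesenchyme markers were higher and 1 lower, and 3 of 8 neural markers tested were higher and 1 lower. Lower were also 5 of 5 erythroid, 4 of 4 primed and 2 of 6 pluripotent stem cell markers. The part of these markers in the values was not tested.

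B3GALT5-KO cells in 2iLAF against B3GALT5-KO basal gave values of a like kind in libraries that the WT 5iLAF comparison does not use. Of 29 members 2 were higher and 3 lower, where 27.7% of all genes tested passed in either direction, 15.9% as higher and 11.8% as lower. PCDHGC3 had a log2 ratio of 1.95 and PCDHGC5 of 1.16. The lower members were PCDHB16 at -1.34, PCDHA6 at -1.12 and PCDHB12 at -1.09. The filter took in PCDHGC5 only through the libraries labelled naive, and PCDHB12 only through the others. All 11 beta members tested had negative ratios, with a median of -0.43, against 0.01 for all genes. The beta sum had a log2 ratio of -0.74, the gamma sum 0.83 (0.33 without C-type members) and the alpha sum 0.00. In the same comparison 8 of 10 mesenchyme markers were higher and 1 lower, and 4 of 8 neural markers tested were higher and 1 lower. Higher were also 5 of 5 granulocyte and 4 of 5 erythroid markers, and lower were 4 of 4 primed and 3 of 6 pluripotent stem cell markers. The part of these markers in the values was not tested.

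**Figure D5:**
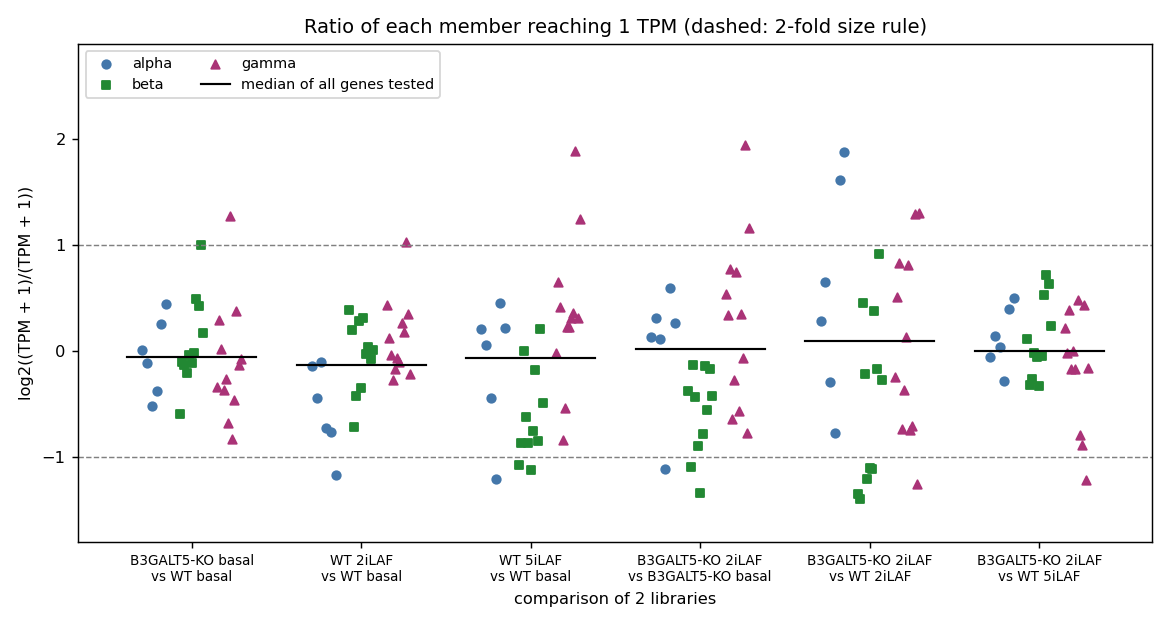
Log2((TPM + 1)/(TPM + 1)) of the 29 members that reached 1 TPM (points; circles alpha, squares beta, triangles gamma) in 6 comparisons of 2 libraries (x axis). Black lines are medians of all genes tested and dashed lines the 2-fold size rule. PCDHGC3 is the highest point in WT 5iLAF against WT basal (1.89) and in B3GALT5-KO 2iLAF against B3GALT5-KO basal (1.95), with beta members mostly under 0 in both.

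PCDHB16 and PCDHA6 passed as lower in both of these comparisons. PCDHB16 stood at 6.04 and 5.5 TPM in basal WT and knockout cells, 4.54 and 2.24 TPM in WT cells in 2iLAF and 5iLAF, and 1.57 TPM in knockout cells in 2iLAF. PCDHA6, at 6.41, 4.70, 3.49, 2.20 and 1.63 TPM, was also lowest in the libraries labelled naive and highest in WT basal. PCDHB15, which passed in neither, stood at 8.78, 8.56, 10.9, 4.34 and 4.14 TPM and was highest in WT 2iLAF. Each of the 3 had its 2 lowest levels in the libraries labelled naive.

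Against the other 3 libraries, the 2 libraries labelled naive were wholly lower for 11 of 29 members and wholly higher for 8. Of all genes tested 26.9% lay wholly lower and 29.3% wholly higher, so the count of higher members was near the background. By cluster, 8 of 11 beta members were wholly lower and 0 wholly higher. In gamma 2 of 12 were lower and 5 higher, and in alpha 1 of 6 was lower and 3 higher. Among these members, PCDHGA3 and PCDHGC5 reached 1 TPM only in libraries labelled naive, and PCDHB10, PCDHB12, PCDHGB1 and PCDHGB2 only in the others. Medium and genotype differ between these libraries as well as the labelled state.

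In 2iLAF, B3GALT5-KO cells differed from WT cells in more members than in any other comparison made, at a share not far above that of all genes. Of 29 members 4 were higher and 6 lower (34.5% in all), where 27.5% of all genes tested passed in either direction, 16.6% as higher and 10.8% as lower. Higher were 4 of the 5 C-type members, PCDHAC2 at 1.88, PCDHAC1 at 1.62, PCDHGC5 at 1.30 and PCDHGC3 at 1.30. Among these, PCDHGC5 passed the filter only through the libraries labelled naive, where it was high. The C-type member PCDHGC4 was lower, at -1.26. The other 5 lower members were all beta genes, PCDHB12 at -1.39, PCDHB10 at -1.35, PCDHB15 at -1.21, PCDHB2 at -1.11 and PCDHB16 at -1.11. PCDHB12 stood at 1.29 and 1.13 TPM in basal WT and knockout cells, at 1.63 and 0.25 TPM in WT cells in 2iLAF and 5iLAF, and was listed at 0 in knockout cells in 2iLAF. PCDHB10 stood at 2.50, 1.32, 3.57, 0.66 and 0.79 TPM. Both PCDHB12 and PCDHB10 passed the filter only through libraries not labelled naive, where they were high. The beta sum had a log2 ratio of -0.71, or -1.06 without PCDHB5, the most abundant member. The labels give the 2 libraries different states, so genotype and state cannot be told apart. Of the markers, 9 of 10 mesenchyme, 5 of 5 granulocyte and 4 of 5 erythroid genes were higher in the knockout library, and their part in these values was not tested. The change from basal to 2iLAF had opposite signs in WT and knockout cells, with a difference of at least 1, for 7 of 29 members (24.1%), where 18.6% of all genes tested met the same rule.

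The fewest members differed between the 2 libraries labelled naive, 1 against 2 between the basal libraries. Over all genes the order was the other way, as 1.76% passed between the basal libraries, and on FPKM 0 members passed in either comparison. In B3GALT5-KO 2iLAF against WT 5iLAF 0 of 29 members were higher and 1 lower, where 5.93% of all genes tested passed in either direction, 4.9% as higher and 1.03% as lower. The lower member was PCDHGC4 at -1.22. PCDHB5 had the highest ratio, 0.72, and the sums of alpha, beta and gamma had ratios of 0.16, 0.31 and -0.05.

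Of 26 factors known to act on promoter choice in these clusters, 0 were past 2-fold between WT and knockout cells in basal medium, against 1.76% of all genes tested. At that share, a count of 0 among 26 is near the background. DNMT3B, the de novo methyltransferase that marks their promoters in the embryo, stood at 754 and 479 TPM in basal WT and knockout cells, 697 and 133 TPM in WT cells in 2iLAF and 5iLAF, and 135 TPM in knockout cells in 2iLAF. The level was lower in the libraries labelled naive, at a log2 ratio of -2.49 in WT 5iLAF against WT basal and -1.82 in B3GALT5-KO 2iLAF against B3GALT5-KO basal. Of the 26 factors, 1 was higher and 2 lower in the first of these comparisons, where 10.7% and 11.4% of all genes were. In the second 2 were higher and 2 lower, where 15.9% and 11.8% of all genes were. EHMT2, a histone H3 lysine methyltransferase, passed as lower in the same comparisons, at -1.05 and -1.02. REST, a repressor of neuronal genes, passed as higher, at 1.61 and 1.47, and STAG1, a cohesin subunit, at 1.14 in the knockout comparison alone, with 0.36 in WT 5iLAF against WT basal. CTCF, which binds the promoters, stood at 69.6, 65.5, 51.5, 54.1 and 53.8 TPM and passed in no comparison. SMCHD1, a repressor of these clusters, stood between 16.9 and 23.1 TPM. RNA levels do not give methylation or binding.

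Among 19 binding partners and processing enzymes, 0 passed between the basal libraries, again against 1.76% of all genes and near that background. Of the 19, 5 were higher and 2 lower in the knockout cells on going from basal medium to 2iLAF, where 15.9% and 11.8% of all genes were. In WT 5iLAF against WT basal 2 were higher and 2 lower, where 10.7% and 11.4% of all genes were. PTK2B, a kinase that protocadherin tails inhibit, had a log2 ratio of 1.77 in the knockout comparison and 1.14 in WT 5iLAF against WT basal. RET, a receptor kinase that binds protocadherins, had ratios of 1.1 and 1.2 in these comparisons, and 1.03 in WT 2iLAF against WT basal. WASF3, of the WAVE actin complex, was lower in both, at -1.86 and -1.26. PTK2, the focal adhesion kinase and the partner of PTK2B in this role, stood at 109, 103, 71.5, 73.7 and 72.2 TPM and did not pass.

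Of 12 protocadherins outside the 3 clusters 9 were tested, and 4 were higher and 0 lower in WT 2iLAF against WT basal. Of all genes tested, 4.73% were higher and 7.03% lower there. PCDH8 stood at 36.5 against 0.16 TPM and PCDH7 at 21.1 against 1.00 TPM. In B3GALT5-KO 2iLAF against WT 2iLAF 1 was higher and 4 lower, where 16.6% and 10.8% of all genes were. PCDH18 stood at 12.7 and 35.1 TPM in basal WT and knockout cells, 99.2 and 39.0 TPM in WT cells in 2iLAF and 5iLAF, and 36.8 TPM in knockout cells in 2iLAF. It was the 1 of the 9 tested that passed between the basal libraries, at 1.39, where 0.704% of all genes passed as higher. PCDH1, downstream of the gamma cluster, stood at 116, 94.5, 100.2, 43.0 and 37.1 TPM in that order, low in the libraries labelled naive. Among 14 tested neighbours of the clusters, TAF7, between beta and gamma, stood at 169, 158, 139, 102 and 105 TPM and passed in none of the 6 comparisons. RELL2 and ARAP3, beyond the gamma cluster, were lower than in basal medium in all 3 comparisons of a medium with basal, with RELL2 at 31.4, 26.1, 9.30, 2.80 and 2.53 TPM.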

How the data were processed

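The authors deposited 1 table with a TPM and an FPKM value per gene symbol and library, per the file headers. The submitters' processing notes name Trimmomatic 0.39, Bowtie2 2.3.4.1, RSEM 1.2.28 and hg19. Annotation and strand setting were not given in the sources used here. Libraries were made with a stranded kit from poly(A) RNA, per the labels' protocols. Deposited TPM values were used as they are, deposited FPKM values as an alternative. The table holds no counts and low FPKM values showed no steps (at most 6.66% of ratios between libraries fell in any bin 0.05 wide in log2), so depth and counting error are unknown.

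Members, gene lists and comparisons were chosen with earlier results of these data known. With 1 library per group no test was made. Ratios used a pseudocount of 1 TPM, the 15761 genes reaching 1 TPM in a library and a 2-fold size rule. All 5 libraries' values are given for C-type members, members reaching 5 TPM and those with the highest or lowest ratio of a comparison. Of other lists, genes past the size rule or the 4 at the highest level may be named. Values of PCDHB3, PCDHB8, PCDHB10, CTCF, SMCHD1 and PTK2, and the markers below 1 TPM, were given outside this rule, after they were seen. Fibroblast, granulocyte, erythroid, neural, naive, primed and pluripotent stem cell markers were set beside the members. Primed markers (4 genes) summed to 1573 and 1717 TPM in WT and B3GALT5-KO basal, 219 in WT 2iLAF, and 79.9 and 95.5 TPM in WT 5iLAF and B3GALT5-KO 2iLAF. Promoter windows (RefSeq, GRCh38.p14) and transcripts (GENCODE 29, GRCh38) were matched by symbol. Words of 8 bases with over 2 different letters were counted, ties going to the word rarest in all windows, and a gene with several starts was taken at the one farthest upstream. These builds differ from that of the values, so no value was placed by coordinate.

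Python 3.11.15, numpy 2.4.6, pandas 2.3.3 and matplotlib 3.10.9 were used, and the ratio procedure was tested on simulated data.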

Additional observations from a re-analysis of the deposited data

Results flagged for a closer look

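The change from basal to 2iLAF medium had opposite signs in WT and B3GALT5-KO cells for 7 members and differed by at least 1 on the log2 scale, among 29 tested (24.1%), where 18.6% of all genes tested met the same rule. With 1 library per group these differences were not tested. The difference, knockout change minus WT change, was 1.36 for PCDHAC1, 1.44 for PCDHAC2 and 1.38 for PCDHGC5, which were lower in 2iLAF in WT cells and higher in knockout cells. It was -1.09 for PCDHB2, -1.29 for PCDHB12, -1.18 for PCDHB15 and -1.13 for PCDHGC4, which were higher in 2iLAF in WT cells and lower in knockout cells. PCDHGC5 and PCDHB12 were below 2 TPM in all 5 libraries. PCDHGC5 reached 1 TPM only in the libraries labelled naive, and PCDHB12 only in the others. Mesenchyme and granulocyte markers were also highest in the B3GALT5-KO 2iLAF library of these 4, and their part in the differences was not tested.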

How the results depend on the processing

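Counts of members are given as higher and lower, in the order B3GALT5-KO basal against WT basal, WT 2iLAF and WT 5iLAF each against WT basal, and B3GALT5-KO 2iLAF against B3GALT5-KO basal, WT 2iLAF and WT 5iLAF. They were 2 and 0, 1 and 1, 2 and 3, 2 and 3, 4 and 6, 0 and 1 as reported, and these same counts were found with no filter and under median-ratio and trimmed-mean scaling. With a pseudocount of 0.1 they were 2 and 1, 1 and 4, 3 and 7, 3 and 6, 7 and 8, 1 and 2. With a pseudocount of 5 they were 0 and 0, 0 and 0, 1 and 0, 1 and 0, 1 and 0, 0 and 0. At 5 TPM as filter they were 0 and 0, 1 and 1, 1 and 2, 1 and 2, 2 and 3, 0 and 0, with fewer members tested. A 1.5-fold rule gave 2 and 3, 1 and 4, 3 and 9, 5 and 7, 8 and 10, 2 and 3, and a 4-fold rule gave 0 in every case. FPKM, on which a pseudocount of 1 weighs more because its values are lower, gave 0 and 0, 0 and 0, 1 and 0, 1 and 1, 3 and 3, 0 and 0. All 120 recomputed cluster sums moved by less than 1.5-fold and 119 kept their side of the size rule, but 9 changed sign, each from a ratio of at most 0.23 in size. The gamma sum of B3GALT5-KO 2iLAF against WT 2iLAF went from 0.23 to -0.24 without C-type members and to -0.24 without its most abundant member, and the beta sum of B3GALT5-KO basal against WT basal from 0.16 to -0.02 without PCDHB5. The beta sum of B3GALT5-KO 2iLAF against WT 2iLAF, at -0.71, was -1.06 without PCDHB5. Of 510 recomputed ratios of single members 27 no longer passed the rule and 7 came to pass it, 20 in all moved by more than 1.5-fold, and 14 changed sign, each from a ratio of at most 0.14 in size. Median-ratio scaling shifted the median of all genes by 0.14 in WT 2iLAF against WT basal. No paired analysis was possible because each group holds 1 library. Low members are limited by a depth that is not known.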
